A study of Rattus norvegicus with 18 samples.

Results

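The question asked of these data was whether damaging light changes a retinal transcript by the same amount when the retina has first been given photobiomodulation (PBM), a course of low-energy red light. The measure was a difference of 2 differences on the log2 scale, the light difference after PBM (PBMLD minus PBM) less the light difference without pretreatment (LD minus Control), called the interaction here. It was taken for each of 29214 probe sets on 12 of the 18 Affymetrix rat Gene 1.0 ST arrays of the study, with 3 arrays in each of 4 groups. An interaction below 0 marks a transcript that light moved less upward, or further downward, after PBM than without it.

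All retinas came from adult Sprague Dawley rats, an albino strain, aged P80 to P120 (postnatal days) and reared in cyclic light of 5 lux. Control rats had neither treatment, and PBM rats were given red light for 3 min a day on 5 days with no damaging light. LD rats were placed in bright light for 24 h, at 1000 lux by the sample description and the study's methods and at 100 lux by the source name. PBMLD rats had the PBM course and then 1000 lux for 24 h. By the methods, each array held the retina of a different animal, each group held both sexes, and light-damaged animals were first kept in darkness overnight, a step not described for Control and PBM. The labels give no sex or batch for an array. Damaging light in PBMLD began on the morning of the last PBM treatment, so PBM and PBMLD tissue was taken the same time after it. The 6 remaining arrays, from rats given a daily saffron feed of 1 mg/kg over 3 weeks without (Saffron) or with damaging light (SafLD), served to choose light-responsive probe sets that the 12 arrays had not chosen, and entered 1 alternative fit of all 18 arrays.

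In albino rats bright light kills photoreceptors, most of them rods. Müller cells, the radial glia of the retina, respond with GFAP and other proteins of a reactive state, in large part through cytokines that signal by the shared receptor gp130 and the transcription factor STAT3, while chemokines draw phagocytes and interferon-stimulated genes are induced. Red light is thought to be absorbed in cells by cytochrome c oxidase of the mitochondrion.

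The 12 arrays ran from 1.37 to 14.03 on the log2 scale, with medians from 6.12 to 6.19. Rod genes were bright on every array: Gnat1, the rod transducin alpha subunit, lay between 13.0 and 13.8, and Sag, rod arrestin, between 13.2 and 13.4. The PBMLD arrays lay farther apart (Euclidean distances of 66.5 to 88.8 over all probe sets) than the PBM arrays (46.2 to 50.2). The mean of 16 lens markers was 11.3 in LD 1, 11.2 in LD 3 and 10.5 in PBMLD 1, against 9.05 to 9.66 on the other 9 arrays, and the mean of 12 pigment epithelium markers was 5.94 in PBMLD 1 against 6.42 to 7.42 elsewhere. With the lens mean as a covariate the interaction still had 0 calls. With the pigment epithelium mean it had 1, an unnamed probe set.

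No probe set passed the test of the interaction. With limma and Benjamini-Hochberg adjustment over all 29214 probe sets, 0 were called at an adjusted p under 0.05 and more than 2-fold (0% in either direction), and the smallest adjusted p was 0.143. At an unadjusted p under 0.05 there were 1132 probe sets (3.87%), 612 of them higher (2.09%) and 520 lower (1.78%), and an ordinary least-squares contrast with the same adjustment also called 0 (its smallest adjusted p was 0.0478, for a value short of 2-fold). The median standard error of the interaction was 0.23, against 0.16 for a single light difference, and its median 95% interval reached 0.50 to each side. With all 18 arrays in the fit 2 probe sets passed, Ldb2 above 0 (adjusted p = 0.0303) and the unnamed probe set 10782065 below 0 (adjusted p = 0.0418). The genes that follow are therefore given as values that missed the test.

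The 2 light differences, taken singly, did give calls. Light without pretreatment called 122 probe sets (0.418%), 107 higher (0.366%) and 15 lower (0.0513%), and light after PBM called 31 (0.106%), 24 higher (0.0822%) and 7 lower (0.024%). The second count was 83 without PBMLD 1 and 14 without PBM 3, and the first was 260 without LD 1 and 67 without Control 1. The lists shared 26 probe sets, all in the same direction, which is 21.3% of the first list and 83.9% of the second. Passing in one contrast and not in the other is not a tested difference, and the interaction gives that test.

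**Figure D1:**
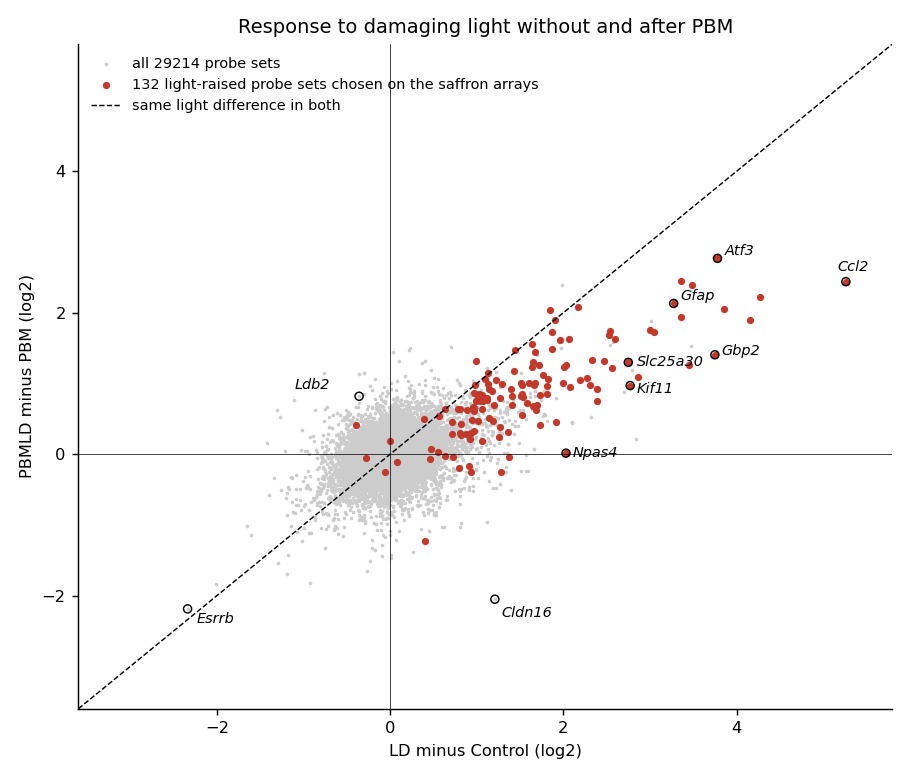
Light difference of each probe set without pretreatment (LD minus Control, log2, horizontal) and after PBM (PBMLD minus PBM, log2, vertical), from the means of 3 arrays a group. Red points are the 132 probe sets that light raised on the saffron arrays, of which 123 had an interaction below 0 and so lie under the dashed line of equal differences, and rings mark named genes.

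The light response as a whole can be followed on probe sets chosen elsewhere. On the 6 saffron arrays alone, light called 132 probe sets higher, 100 of them with a single gene symbol. On the other 12 arrays their median light difference was 1.42 without pretreatment and 0.84 after PBM, and 123 of the 132 had an interaction below 0 (93.2%, against 46.9% of all probe sets), with a median of -0.64 against 0.02 over all. Of these, 39 reached an unadjusted p under 0.05, all below 0, and none was called. Without pretreatment 69 were called higher and after PBM 20, against 0.366% and 0.0822% of all probe sets. All LD arrays lay above all Control arrays for 120 of the 132 (7.54% of all probe sets did), and all PBMLD above all PBM arrays for 85 (7.17%).

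By array, the median of the 132 over the unlit mean of its own pretreatment was 1.104 in LD 1, 1.58 in LD 2 and 1.57 in LD 3, and it was 0.55 in PBMLD 1, 1.12 in PBMLD 2 and 0.90 in PBMLD 3. The ranges touch, since PBMLD 2 stood just above LD 1, and PBMLD 1 was the lowest. Probe by probe, the 3 PBMLD arrays all lay below the 3 LD arrays for 16 of the 132, against 4.41% of all probe sets. The median interaction was -0.52 without PBMLD 1 and -0.78 without LD 1, the ends of its range as each array was left out.

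The 17 named probe sets that light lowered on the saffron arrays included several of the same gene, Rpl39, each counted. The 17 moved by a median of -0.76 without pretreatment and -0.62 after PBM, with a median interaction of 0.15 and 7 of 17 below 0. The sign of that median was not stable. It was -0.138 without LD 3, -0.069 with the pigment epithelium mean as a covariate and -0.006 with array weights. Esrrb, a nuclear receptor of rods, was called lower in both contrasts, by -2.34 ± 0.32 (SE) and -2.19 ± 0.32, and its interaction was 0.15 ± 0.45. Plpp2, a lipid phosphatase, stood at -2.02 ± 0.28 and -1.84 ± 0.28, again called in both. Miox, myo-inositol oxygenase, gave -1.13 without pretreatment, called, and -0.81 after PBM, past the adjusted p (0.0206) and short of 2-fold. The light differences of Ppef1, a photoreceptor phosphatase, were -1.02 and -1.23, and those of Tma7 -0.42 and -0.32. The other 101 probe sets of that choice had no single symbol. Over all 118 the median light difference was 0.09 without pretreatment and -0.14 after PBM, so the whole set was not lowered in LD as it was on the saffron arrays. The median interaction over the 118 was -0.23, and in 102 the PBM arrays lay below the Control arrays without overlap, against 11.4% of all probe sets.

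Of genes with an interaction below 0, Cldn16, a claudin of tight junctions, had the smallest p. Its log2 levels were 5.02, 4.97 and 5.35 in Control, 6.94, 6.99 and 5.03 in LD, 7.02, 7.21 and 7.02 in PBM, and 4.79, 5.14 and 5.17 in PBMLD. Every array was thus near 5 or near 7, and LD 3 sat apart from LD 1 and LD 2. The interaction was -3.26 ± 0.55 (unadjusted p = 4.744e-05, adjusted p = 0.462), and without LD 3 it was called, at an adjusted p of 2.36e-05 by limma.

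Npas4, an activity-dependent transcription factor of neurons, was at 6.65, 6.68 and 6.35 in Control, 7.51, 8.86 and 9.41 in LD, 7.15, 7.22 and 6.43 in PBM, and 6.88, 7.21 and 6.75 in PBMLD. All LD arrays were above all others, and PBMLD lay within the range of PBM. Light raised it by 2.03 ± 0.37 without pretreatment (called, adjusted p = 0.0242) and the difference after PBM was 0.01 ± 0.37, an interaction of -2.02 ± 0.52 (unadjusted p = 0.002003).

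Kif11, a mitotic kinesin, read 5.30, 5.39 and 5.35 in Control, 7.33, 8.23 and 8.80 in LD, 5.99, 6.01 and 6.02 in PBM, and 6.39, 7.64 and 6.91 in PBMLD. PBM arrays lay above Control, and PBMLD 2 overlapped LD. Its light difference was 2.77 ± 0.33 (called) and 0.97 ± 0.33, with an interaction of -1.80 ± 0.46. Slc25a30, a mitochondrial carrier, had the same order of groups: 6.86, 6.84 and 6.56 in Control, 8.87, 9.65 and 9.99 in LD, 7.58, 7.36 and 7.45 in PBM, and 8.88, 8.41 and 8.98 in PBMLD. Its light difference was 2.75 ± 0.24 (called) without pretreatment and 1.30 ± 0.24 after PBM (adjusted p = 0.0563), and its interaction was -1.45 ± 0.34.

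Chst3, a chondroitin sulfotransferase of the matrix, was the 1 probe set that PBM called higher without damaging light. It stood at 5.33, 5.07 and 5.27 in Control, 6.29, 7.12 and 6.34 in LD, 6.96, 7.01 and 7.21 in PBM, and 7.34, 7.44 and 7.37 in PBMLD. PBMLD was above every other array, so the interaction of -1.04 ± 0.27 goes with a PBM level already 1.84 ± 0.19 above Control, onto which light added 0.32 ± 0.19. Slc5a3, a myo-inositol transporter, was likewise at 7.85 to 8.05 in PBM against 6.98 to 7.30 in Control, and its light difference was 0.68 without pretreatment and -0.33 after PBM.

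Il1rap, the accessory chain of the interleukin-1 receptor, read 7.07, 7.58 and 7.41 in Control, 7.70, 8.30 and 8.11 in LD, 7.53, 7.37 and 7.47 in PBM, and 7.24, 6.96 and 7.25 in PBMLD. LD was wholly above Control and PBMLD wholly below PBM, with an interaction of -0.99 ± 0.24. Itgb1, the integrin beta 1 chain, had light differences of 0.76 and -0.29 and an interaction of -1.05 ± 0.25. Trim16, a ubiquitin ligase, gave 0.17 and -0.44. The olfactory receptor Or1o2b, at levels of 2.55 to 3.44, gave 0.30 and -0.58.

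**Figure D2:**
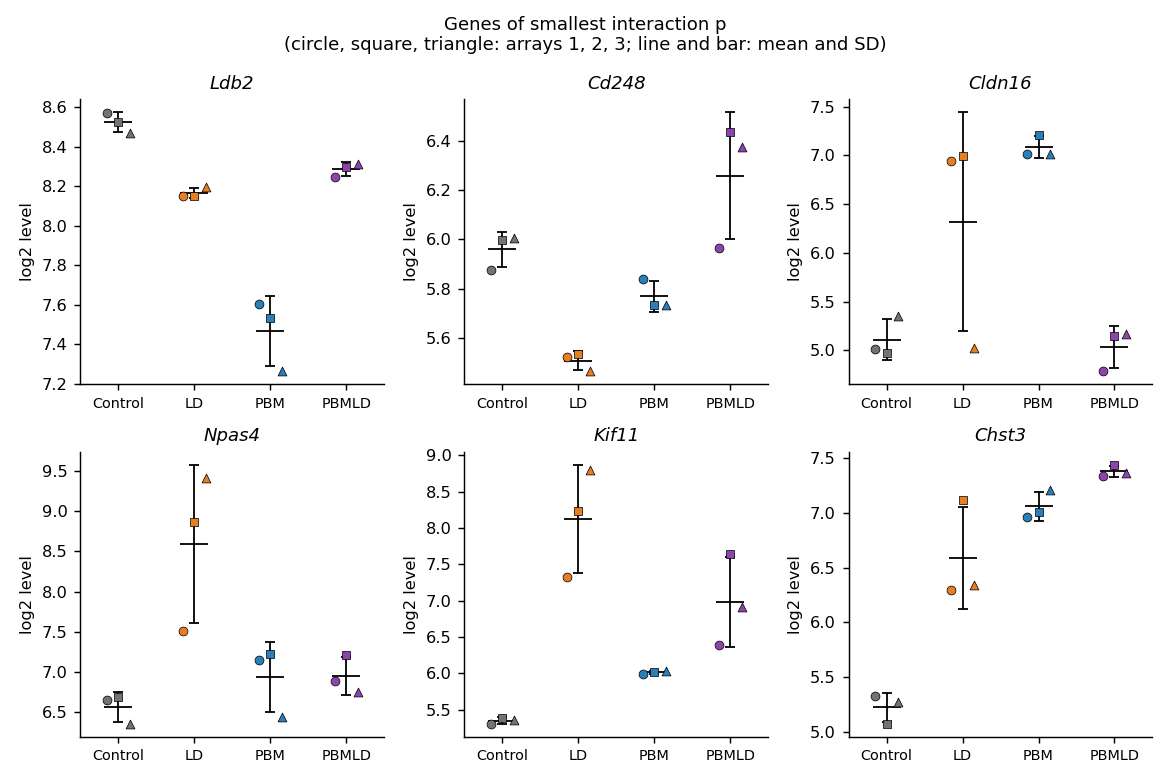
Log2 level on each of the 12 arrays for 6 genes of small interaction p, by group, with the group mean and SD (n = 3). Ldb2 and Cd248 are lower in LD than in Control and higher in PBMLD than in PBM, Npas4 is high in LD alone, and Chst3 and Kif11 stand higher in PBM than in Control.

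Above 0, Ldb2 led. It encodes a cofactor of LIM-domain transcription factors. Its levels were 8.57, 8.53 and 8.47 in Control, 8.15, 8.15 and 8.20 in LD, 7.61, 7.53 and 7.27 in PBM, and 8.25, 8.30 and 8.32 in PBMLD. The 4 groups did not overlap at any point: PBM was lowest, LD next, then PBMLD, and Control highest. PBM without damaging light lowered Ldb2 by 1.06 on the log2 scale (called, adjusted p = 0.0007536), and PBMLD differed from LD by 0.12 ± 0.12. Its light difference was -0.36 ± 0.12 without pretreatment and 0.82 ± 0.12 after PBM (adjusted p = 0.01294, short of 2-fold). Its interaction was 1.18 ± 0.16 (95% interval 0.82 to 1.53, unadjusted p = 7.648e-06, adjusted p = 0.143), and it was called with all 18 arrays in the fit and with array weights.

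Cd248, endosialin of pericytes and stromal cells, stood at 5.88, 5.995 and 6.01 in Control, 5.52, 5.53 and 5.47 in LD, 5.84, 5.73 and 5.73 in PBM, and 5.96, 6.44 and 6.37 in PBMLD. LD lay wholly below Control and PBMLD wholly above PBM, by -0.45 and 0.49, neither past the adjusted p, and the interaction was 0.94 ± 0.19. Rgs20, a regulator of G protein signalling, was at 9.69, 9.78 and 9.24 in Control, 9.13, 8.92 and 8.64 in LD, 8.87, 8.77 and 8.81 in PBM, and 9.26, 8.89 and 9.41 in PBMLD, with light differences of -0.67 and 0.37. Diras1, a small GTPase, gave -0.51 and 0.43, Armc2 -0.38 and 0.20, and the olfactory receptor Or8k39, at 2.67 to 3.69, gave -0.40 and 0.33.

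Among the rest of the 10 above 0, Agt and Frzb passed the adjusted p for light without pretreatment. Agt, angiotensinogen, is also one of the genes measured by RT-PCR in the study. It read 7.77, 7.55 and 7.87 in Control, 6.77, 6.67 and 6.33 in LD, 7.57, 7.36 and 7.28 in PBM, and 7.28, 6.98 and 6.95 in PBMLD. Light called it lower without pretreatment, by -1.14 ± 0.15, while the difference after PBM was -0.33 ± 0.15 and every PBMLD array lay above every LD array. Frzb, a secreted inhibitor of Wnt ligands, gave -0.75 ± 0.13 (adjusted p = 0.0177, short of 2-fold) and 0.04 ± 0.13. Ccdc87 gave -0.71 and 0.53, and Chst12, a chondroitin sulfotransferase, -0.56 and 0.22.

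An interaction can also be read as the PBM difference in light-damaged retinas (PBMLD minus LD) less that in undamaged ones (PBM minus Control). PBM minus Control called 32 probe sets (0.11%), 31 of them lower (0.106%) and 1 higher (0.00342%), and only Chst3 and Ldb2 had a single symbol. PBMLD minus LD called 54 (0.185%), 53 of them lower (0.181%) and 1 higher (0.00342%). By limma 0 of these had a single symbol, while 3186 probe sets of any kind (10.9%) had an unadjusted p under 0.05. A single numbered run of 54 unnamed probe sets held 25 of the PBM minus Control calls and 32 of the PBMLD minus LD calls, and with p-values adjusted again without that run the counts were 7 and 10. Of the 10 leading genes below 0, PBM was above Control in all 10 means and PBMLD was below LD in 9, Chst3 being the exception. In the 10 above 0, PBM was below Control and PBMLD above LD in all 10. The same held for 193 of the 234 named probe sets below 0 at an unadjusted p under 0.05 and, mirrored, for 319 of the 349 above 0. These sets were chosen by the interaction, so the counts only describe how it was made up: in most of them both PBM differences took part.

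**Figure D3:**
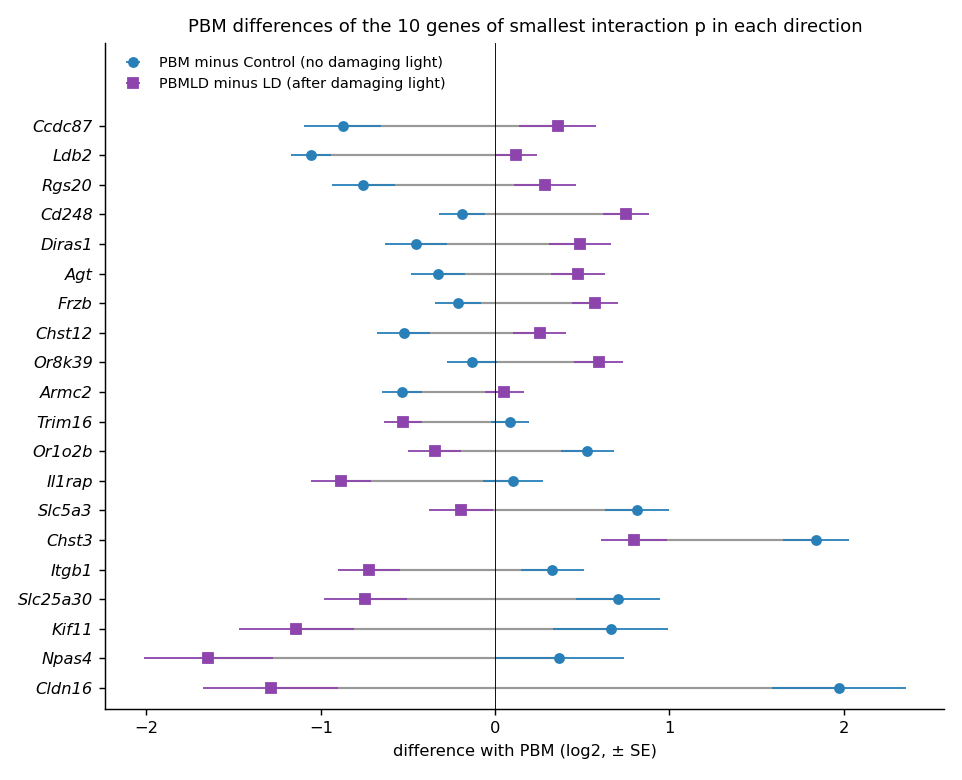
Difference with PBM in undamaged retinas (PBM minus Control, circles) and in light-damaged retinas (PBMLD minus LD, squares), log2 with standard errors, for the 10 genes of smallest interaction p in each direction. The 2 values lie on opposite sides of 0 for every gene but Chst3, where both are above it.

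The genes measured by RT-PCR were picked by the study on these samples and are no independent evidence of direction. Their median light difference was 1.15 without pretreatment and 0.67 after PBM, 10 of 13 had an interaction below 0, and none was called. Stat3, the transcription factor of gp130 signalling, read 8.73, 8.78 and 8.56 in Control, 10.41, 11.00 and 10.73 in LD, 8.83, 8.74 and 8.79 in PBM, and 9.999, 9.87 and 10.28 in PBMLD. All light-damaged arrays were above all others, and all PBMLD arrays were below all LD arrays. Light raised Stat3 by 2.03 ± 0.16 without pretreatment and by 1.26 ± 0.16 after PBM, both called, and the interaction was -0.76 ± 0.22 (unadjusted p = 0.004509). Gfap, the intermediate filament of reactive glia, read 6.91, 6.23 and 6.73 in Control, 9.46, 10.37 and 9.86 in LD, 6.53, 7.06 and 7.04 in PBM, and 8.54, 9.05 and 9.43 in PBMLD. It rose in both contrasts, by 3.27 ± 0.27 and 2.13 ± 0.27, and every PBMLD array was below every LD array.

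Hmox1, the inducible heme oxygenase, was at 4.77, 4.55 and 5.04 in Control, 6.12, 7.47 and 8.001 in LD, 5.04, 5.19 and 5.10 in PBM, and 5.33, 6.52 and 5.66 in PBMLD. It rose by 2.40 ± 0.39 without pretreatment, and the difference after PBM was 0.73 ± 0.39. Socs3, the feedback inhibitor of gp130 signalling, gave 3.01 ± 0.37 (called) and 1.75 ± 0.37. Crot, a peroxisomal carnitine acyltransferase, gave 0.97 and 0.33. The light differences of Fgf2, a survival factor for photoreceptors, were 1.97 (called) and 1.505, and those of Edn2, an endothelin made by stressed photoreceptors, 0.95 and 0.67.

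Optn, optineurin, was the RT-PCR gene whose light difference was nearly the same in both contrasts: 10.49, 10.54 and 10.10 in Control, 9.55, 9.43 and 9.33 in LD, 10.54, 10.49 and 10.45 in PBM, and 9.51, 9.30 and 9.33 in PBMLD. Its light differences of -0.94 and -1.11 both passed the adjusted p, the second alone passed 2-fold, and the interaction was -0.17 ± 0.19. Smarcd1, a SWI/SNF subunit, gave -0.95 and -0.47, and Gpx3, a secreted glutathione peroxidase, -0.57 and -0.15. Fabp5, a fatty acid binding protein, was at 8.84, 6.401 and 9.21 in LD, high on the same arrays as the lens markers, and its interaction was -0.96 ± 0.75.

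Among chemokines and cytokines, which recruit and activate immune cells, the interaction was below 0 in 20 of 24, and the median light difference was 0.94 without pretreatment and 0.42 after PBM. Ccl2, which attracts monocytes, was at 5.60, 5.00 and 5.08 in Control, 9.13, 10.94 and 11.38 in LD, 5.90, 5.52 and 5.26 in PBM, and 5.34, 10.56 and 8.10 in PBMLD. PBMLD 1 was within the range of the undamaged arrays and PBMLD 2 within that of LD. Over the list, LD 1 was the lowest LD array for 22 of 24 genes and PBMLD 1 the lowest PBMLD array for 21. Of all 29214 probe sets, 8851 and 9505 had these layouts. The list mean was 4.77 in PBMLD 1, under the 4.85 to 4.86 of the PBM arrays, against 6.17 in PBMLD 2 and 5.50 in PBMLD 3. The light difference was 5.26 ± 0.94 (called) without pretreatment and 2.44 ± 0.94 after PBM, and the interaction of -2.82 had an interval from -5.69 to 0.04. Ccl3 gave 4.16 (called) and 1.89, and Cxcl10, the interferon-induced T cell attractant, 4.27 and 2.23. Ccl4 gave 1.73 (called) and 0.42, with an interaction of -1.31 ± 0.40.

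**Figure D4:**
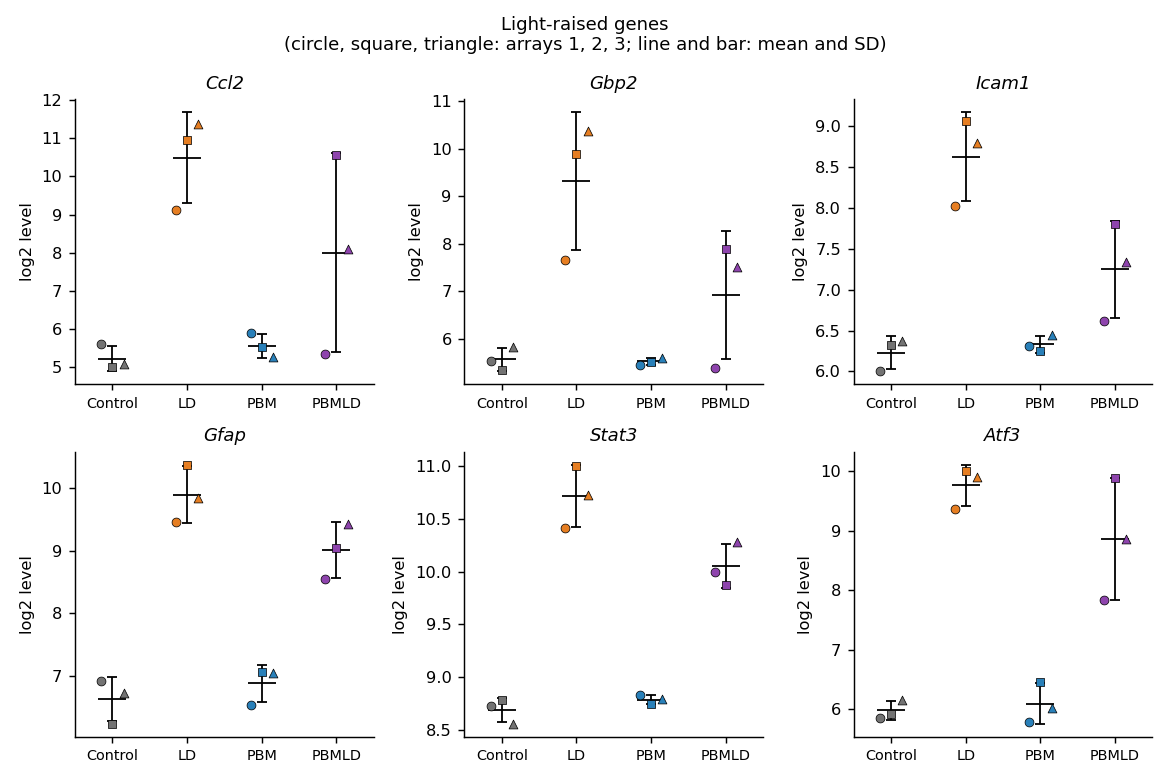
Log2 level on each of the 12 arrays for 6 light-raised genes, by group, with the group mean and SD (n = 3). PBMLD 1 (circle) stands near the PBM arrays for Ccl2 and Gbp2, and all PBMLD arrays lie below all LD arrays for Icam1, Gfap and Stat3 but not for Ccl2, Gbp2 and Atf3.

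Of 17 NF-kB subunits, inhibitors and targets 14 had an interaction below 0, with medians of 1.15 and 0.57. Icam1, the leukocyte adhesion molecule, read 6.01, 6.32 and 6.37 in Control, 8.02, 9.06 and 8.79 in LD, 6.31, 6.25 and 6.45 in PBM, and 6.62, 7.80 and 7.33 in PBMLD. LD was highest, PBMLD lay wholly between LD and the undamaged arrays, and Control and PBM overlapped. The light difference was 2.39 ± 0.28 (called) and 0.92 ± 0.28, and the interaction was -1.48 ± 0.40 (unadjusted p = 0.002869). Birc3, an inhibitor of apoptosis, gave 1.52 (called) and 0.56. Nfkb2, a subunit of the factor itself, gave 1.67 and 0.82. Tnip2, an inhibitor of the pathway, was called in both contrasts, at 1.67 and 1.01.

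Of the interferon pathway and its targets 24 of 25 had an interaction below 0, and the median light difference was 1.35 without pretreatment and 0.45 after PBM. Gbp2, an interferon-induced GTPase, was at 5.53, 5.34 and 5.83 in Control, 7.66, 9.90 and 10.39 in LD, 5.46, 5.51 and 5.60 in PBM, and 5.39, 7.89 and 7.51 in PBMLD. Its light difference was 3.75 ± 0.65 (called) and 1.41 ± 0.65, PBMLD 2 overlapped LD 1, and PBMLD 1 was at the PBM level. Rsad2, viperin, gave 3.48 (called) and 1.53. Irf9, an interferon regulatory factor, was called in both contrasts, at 2.33 and 1.34. The lowest LD array was LD 1 for all 25 of these genes, and the lowest PBMLD array was PBMLD 1 for 23. Over all 29214 probe sets these counts were 8851 and 9505.

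The start regions of 4 of these inflammatory genes are shown, chosen after the search, because light raised the genes on the saffron arrays and each region holds the letters of a searched motif. Each run is the 250 bases before the RefSeq start on the rat assembly GRCr8, read 5′ to 3′ on the gene's strand, and all 4 genes lie on the plus strand. Capitals mark matches to TTCNNNGAA (STAT), TGANTCA (AP-1), the kB motif (GGG and TTCC with any 3 bases between) and TATAAA. In Icam1 at chr8:27829595-27829844 the STAT letters end 99 bases before the start.
Icam1: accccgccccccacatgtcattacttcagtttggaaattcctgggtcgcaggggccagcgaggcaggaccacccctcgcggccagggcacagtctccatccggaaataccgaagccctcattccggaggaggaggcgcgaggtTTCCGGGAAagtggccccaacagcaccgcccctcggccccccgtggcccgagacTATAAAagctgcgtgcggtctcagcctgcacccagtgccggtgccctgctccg
In Irf9 at chr15:33065586-33065835 they end 91 bases before it.
Irf9: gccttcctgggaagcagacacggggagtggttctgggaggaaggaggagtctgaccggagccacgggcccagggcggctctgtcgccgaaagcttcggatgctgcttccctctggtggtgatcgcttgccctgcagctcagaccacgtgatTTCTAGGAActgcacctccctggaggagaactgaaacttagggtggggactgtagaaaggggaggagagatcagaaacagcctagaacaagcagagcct
Gbp2 at chr2:234005477-234005726 holds the AP-1 letters.
Gbp2: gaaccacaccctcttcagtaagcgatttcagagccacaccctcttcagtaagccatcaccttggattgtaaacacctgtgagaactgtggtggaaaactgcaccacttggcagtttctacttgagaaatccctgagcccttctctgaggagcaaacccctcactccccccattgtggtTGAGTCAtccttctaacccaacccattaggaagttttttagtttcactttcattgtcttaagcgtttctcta
Cxcl10 at chr14:15988816-15989065 holds the kB letters at 2 places, the second read on both strands with a shift of 1 base, and the AP-1 letters once.
Cxcl10: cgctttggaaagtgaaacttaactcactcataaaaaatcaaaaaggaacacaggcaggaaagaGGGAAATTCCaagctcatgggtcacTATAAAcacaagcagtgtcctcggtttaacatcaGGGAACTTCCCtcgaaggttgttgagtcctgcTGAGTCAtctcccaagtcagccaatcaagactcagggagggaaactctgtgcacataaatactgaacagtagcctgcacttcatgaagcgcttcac

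Of the 132 light-raised probe sets, the 100 with a single symbol stand for 97 genes, and 76 of these genes had an entry in the promoter table. Searched on both strands over the same 250 bases, the AP-1 letters were in 13.2% of the 76 and in 6.34% of all 33469 entries, the STAT letters in 13.2% and 7.67%, the kB letters in 10.5% and 4.53%, and TATAAA in 19.7% and 12.9%. The cyclic AMP response letters TGACGTCA were in 1.32% and 1.59%. The 76 were counted at 1 entry a gene and the 33469 as all entries without that reduction, so the shares differ in unit. These are descriptions of the light-raised genes, and a match is not a bound site.

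Of reactive Müller glia and astrocyte genes the interaction was below 0 in 19 of 20, the median light difference was 1.41 without pretreatment and 0.69 after PBM, and 10 were called higher without pretreatment (0.366% of all probe sets were) against Gfap alone after PBM (0.0822%). Serpina3n, a protease inhibitor of reactive astrocytes, gave 3.85 (called) and 2.05, with PBMLD at 6.13, 7.73 and 7.63 and LD at 6.84, 9.07 and 9.86. Fgl2 gave 1.91 and 0.46, and Lcn2, lipocalin 2, 3.48 (called) and 2.39. Cd44, a hyaluronan receptor, was at 8.74, 9.13 and 9.85 in LD and 8.05, 8.25 and 8.49 in PBMLD, all of the latter lower, and its interaction was -1.04 ± 0.32. By contrast, the 12 genes of Müller cell homeostasis had medians of -0.17 and -0.15, among them Car14, a carbonic anhydrase, at -0.75 and 0.01, Vim, vimentin, at 0.36 and -0.20, and Kcnj2, a potassium channel, at 0.13 and -0.28.

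In gp130 signalling, 16 of 19 had an interaction below 0. The ligand Lif, leukaemia inhibitory factor, which Müller cells make when photoreceptors are injured, gave 2.54 and 1.74. A second ligand, Clcf1, gave 1.70 (called) and 0.70, and the receptor chain Osmr 2.60 (called) and 1.63. The feedback gene Cish gave 3.36 (called) and 2.45. The receptor chain Cntfr was on the other side, at -0.44 and 0.04, with an interaction of 0.48 ± 0.20. Of the list, 6 were called higher without pretreatment and Stat3 alone after PBM, against 0.366% and 0.0822% of all probe sets.

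In the list of matrix proteases and the plasminogen system, which cut and remodel the extracellular matrix, 17 of 21 had an interaction below 0, 7 of them at an unadjusted p under 0.05 (33.3% of the list, against 3.87% of all probe sets), and the medians were 1.13 and 0.23. Serpinb2, an inhibitor of plasminogen activators, read 3.15, 5.95 and 7.38 in LD and 2.45, 3.36 and 2.92 in PBMLD, with Control at 2.50, 2.67 and 2.79 and PBM at 2.70, 2.36 and 3.04. LD 1 overlapped PBMLD, and the interaction was -2.63 ± 1.02. Mmp3, stromelysin, gave 3.46 and 1.26, and Timp1, an inhibitor of such proteases, 2.56 and 1.22.

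Immediate early and AP-1 genes had an interaction below 0 in 20 of 24, with medians of 0.59 and 0.24. After Npas4, the AP-1 members Fosl1 and Fos gave 2.47 and 1.32, and 1.25 and 0.24, the first value of each being called. Egr1, a zinc finger factor, gave 1.82 (called) and 1.06. Atf3 and Jun were called in both contrasts, Atf3 at 3.78 and 2.77 and Jun at 2.06 and 1.63.

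**Figure D5:**
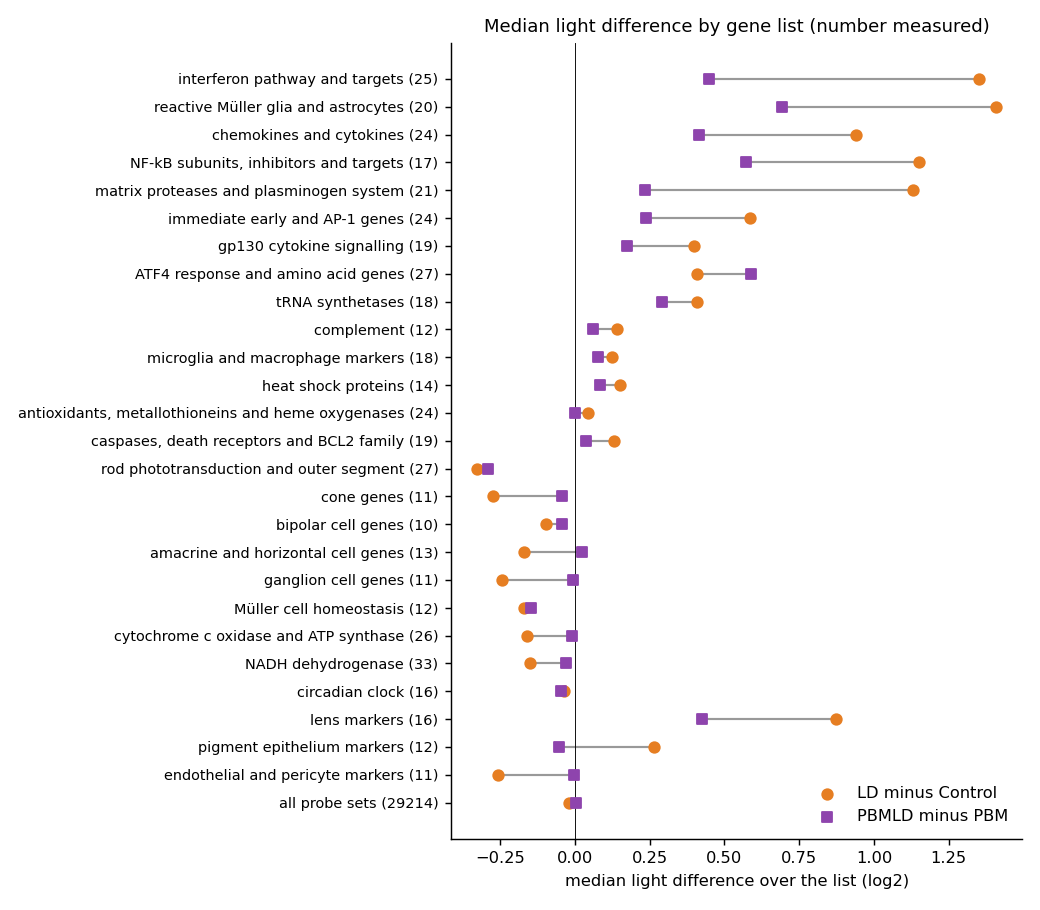
Median light difference (log2) over the measured members of each gene list, without pretreatment (LD minus Control, circles) and after PBM (PBMLD minus PBM, squares), with the number of members in brackets. Interferon genes go from 1.35 to 0.45 and matrix genes from 1.13 to 0.23, and the ATF4 medians stand at 0.41 and 0.59.

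Genes of the ATF4 response, which is switched on by amino acid shortage and endoplasmic reticulum stress, had a median of 0.41 without pretreatment and 0.59 after PBM, with 8 and 5 members called, against 0.366% and 0.0822% of all probe sets called higher. Gene by gene, 17 of 27 had an interaction below 0, the light difference was smaller after PBM in 15, and the median interaction was -0.07. Asns, asparagine synthetase, read 8.40, 8.29 and 8.003 in Control, 10.23, 10.05 and 10.14 in LD, 8.24, 8.18 and 8.13 in PBM, and 10.17, 9.85 and 10.20 in PBMLD. It was called in both contrasts, by 1.91 and 1.89, and the interval of its interaction ran from -0.44 to 0.41. Slc7a1, a cationic amino acid transporter, gave 1.13 and 1.14, and Mthfd2, a mitochondrial folate enzyme, 1.67 and 1.44, all called. At the low end of the list were the amino acid transporters Slc7a11, at 1.14 and 0.02, and Slc1a5, at 1.34 and 0.64, and Vldlr, a lipoprotein receptor, at 0.64 and 0.18. The 18 tRNA synthetases had medians of 0.41 and 0.29, with Lars1 at 0.80 and 0.30, Aars1 at 0.82 and 0.43, and Qars1 at 0.08 and -0.25. Their list mean was 9.84, 9.44 and 9.80 in PBMLD, against 9.75 to 9.87 in LD and 9.36 to 9.37 in PBM. PBMLD 1 and PBMLD 3 were thus within the LD range, and PBMLD 2 alone was below it.

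In the antioxidant list 15 of 24 were below 0, with Mt2A, a metallothionein, at 3.05 (called) and 1.73, and Sod2, the mitochondrial superoxide dismutase, at 1.05 and 0.10. Heat shock genes were below 0 in 10 of 14, led by Hspb1 at 2.57 (called) and 1.59 and Hsph1 at 0.64 and 0.12, and Hspb1 too was high on the arrays with high lens markers, at 9.03 and 9.12 in LD 1 and LD 3 and 7.02 in LD 2. Death-pathway genes were below 0 in 12 of 19, with the death receptor Fas at 1.48 and 0.60, Casp4 at 0.88 and 0.03, and Mcl1, a survival protein, at 0.78 and 0.43. Among growth arrest genes 8 of 10 were below 0, with Gadd45g at 1.08 (called) and 0.27. The complement list had medians of 0.14 and 0.06 and the microglia list 0.13 and 0.08. C1s gave 1.11 and 0.13, Lyz2, lysozyme, 1.13 and 0.07, and C1qb -0.42 and 0.18.

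Over 27 rod genes the median light difference was -0.33 without pretreatment and -0.29 after PBM, 8 of 27 had an interaction below 0 (29.6%, against 46.9%), the light difference was smaller after PBM in 18, and the median interaction was 0.07. The list mean was 11.29, 11.24 and 10.82 in LD, and 11.38, 11.055 and 11.28 in PBMLD. It was 11.58 to 11.67 in Control and 11.64 to 11.65 in PBM. LD 3 thus stood lowest, and the counts and medians were not retaken without it. In whole retina, fewer rods and less RNA per rod cannot be told apart. Gnat1 gave -0.53 and -0.47. Reep6, a rod protein of membrane trafficking, read 12.16, 12.07 and 11.95 in Control, 10.85, 10.74 and 9.63 in LD, 12.11, 12.19 and 12.18 in PBM, and 11.25, 10.95 and 11.24 in PBMLD. Every PBMLD array was above every LD array, LD 3 was the lowest, and the light difference was -1.65 ± 0.25 (called) and -1.01 ± 0.25. Nrl, the factor that sets rod fate, was also lowest in LD 3, at 9.82 against 11.22 and 11.24 in LD 1 and LD 2, and gave -1.09 and -0.72. The cone list had medians of -0.27 and -0.04, with 3 of 11 below 0. Its median PBM difference was -0.23 without damaging light and 0.07 in light-damaged retinas. The cone list mean was 8.65 to 8.80 in Control and 8.54 to 8.58 in PBM. It was 8.31 to 8.55 in LD and 8.39 to 8.59 in PBMLD, so these 2 groups overlapped. Pde6h, a cone phosphodiesterase subunit that the rod list also held, gave -0.75 and -0.24 and Opn1sw, the short-wave cone opsin, -0.80 and -0.49.

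Among energy genes median interactions were 0.12 for 26 cytochrome c oxidase and ATP synthase genes, with 5 below 0, and 0.13 for 33 NADH dehydrogenase genes, with 6 below 0, against 0.02 over all probe sets. In these lists the light difference went from -0.16 to -0.01 and from -0.15 to -0.03. For the first list the median PBM difference was -0.15 without damaging light and 0.04 in light-damaged retinas. For the second it was -0.06 and 0.004. The mean of the first list was 10.077, 10.075 and 10.42 in Control and 9.74, 10.34 and 9.87 in PBMLD. That of the second was 9.48, 9.505 and 9.90 in Control and 9.25, 9.77 and 9.35 in PBMLD. Control 3 and PBMLD 2 thus stood high in both lists, and the medians were not retaken without them. Cox4i2, an oxygen-sensitive oxidase subunit, gave -0.59 and 0.27, and Ndufs7 -0.15 and 0.30. Mitochondrial carriers had a median of 0.01, with 9 of 18 below 0, and clock genes one of -0.01. In the inner retina the median interaction was 0.23 for amacrine and horizontal cell genes (4 of 13 below 0), 0.20 for ganglion cell genes (2 of 11) and 0.02 for bipolar cell genes (5 of 10). The amacrine and horizontal mean was 8.95, 8.96 and 8.475 in LD and 9.12, 9.17 and 8.80 in Control. The ganglion mean was 8.91, 9.10 and 8.63 in LD and 9.19, 9.16 and 8.975 in Control. LD 3 and Control 3 were thus the lowest of their groups, and the medians were not retaken without them.

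Markers of other tissues moved as well. In 15 of 16 lens markers the interaction was below 0, with medians of 0.87 without pretreatment and 0.43 after PBM. Bfsp1, a lens filament protein, was at 10.38, 6.003 and 10.44 in LD and 9.06, 6.27 and 6.35 in PBMLD, with an interaction of -1.60 ± 1.39. Pigment epithelium markers were below 0 in 9 of 12, with Tyrp1, a melanosome enzyme, at 7.31, 7.85 and 9.19 in LD and 4.16, 7.30 and 7.17 in PBMLD. With either marker mean as a covariate the median interaction of the 132 light-raised probe sets was -0.69 (lens) or -0.60 (pigment epithelium). Endothelial markers lay on the other side, 2 of 11 below 0, with Pecam1 at -0.26 and 0.23 and an interaction of 0.54 for Tie1. Their part in the results was not tested beyond these covariates.

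In a few genes the LD and PBMLD arrays lay on opposite sides of their unlit groups without overlap. LD lay above Control and PBMLD below PBM for 37 probe sets (0.127% of all), and the reverse held for 85 (0.291%). Of probe sets with a single symbol 67 did so in either direction (0.438%). These shares were not tested against those that chance alone would give. Among the genes described, Il1rap and Trim16 were of the first kind, and Ldb2, Cd248, Rgs20, Diras1, Armc2, Or8k39, C1qb and Pecam1 of the second. All of them missed the adjusted p of the interaction.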

How the data were processed

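Log2 expression values for 29214 probe sets were used as deposited. Per the labels and the submitters' processing notes, the authors made them by RMA (background correction, quantile normalization and median polish) in Affymetrix Expression Console 1.1.2800.19935, with no pooling of arrays. Arrays have no read depth, and their number, 3 a group, limits the precision.

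A linear model with 1 mean for each of the 4 groups was fitted to the 12 arrays with limma 3.58.1 in R 4.3.3, with empirical Bayes moderation and Benjamini-Hochberg adjustment over all probe sets for each contrast. Called means an adjusted p under 0.05 and more than 2-fold, and ± marks the standard error. p-values are two-sided. Light-responsive probe sets were called in the same way on the 6 saffron arrays alone. Gene symbols came from the platform annotation (15310 probe sets with 1 symbol, 323 with several, 13581 with none), and a gene was read from its brightest probe set. Of 569 listed genes in 31 lists 507 were matched. Lists are described by counts and medians only. Promoter sequences came from RefSeq (GRCr8).

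Genes named were those of smallest interaction p (10 in each direction), the RT-PCR genes, in each list the called members and the 3 of largest interaction, and the largest light differences on the saffron arrays. Asns, Slc7a1, Mthfd2, Irf9, Ccl4, Cd44, Tnip2, Jun, Gnat1, Sag, Cntfr and Lcn2 were added after their values were seen. The members and lists were chosen with earlier results of these data known. The script was tested on simulated data. Alternatives covered the arrays fitted, array weights, variance model, fold limit, ordinary contrasts, scaling, filters, a replicate block, lens and pigment epithelium covariates and leaving out each array.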

Additional observations from a re-analysis of the deposited data

Results flagged for a closer look

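For 12 of the results all LD arrays lay on one side of Control and all PBMLD arrays on the other side of PBM. This layout is why each of the 12 is given here, and how often chance alone gives it was not tested. Over all 29214 probe sets it held for 37 with LD higher and PBMLD lower (0.127%), and for 85 the other way (0.291%). The difference itself was tested as the interaction, and none passed the correction (limma, smallest adjusted p = 0.143). The interaction was above 0, with LD lower and PBMLD higher, for Ldb2 (1.18), Cd248 (0.94), Rgs20 (1.04), Diras1 (0.94), Armc2 (0.59), Or8k39 (0.73), C1qb (0.60), Pecam1 (0.49) and the unnamed probe set 10700076 (1.22). It was below 0, with LD higher and PBMLD lower, for Il1rap (-0.99), Trim16 (-0.61) and the unnamed probe set 10782065 (-1.35). Most of these were chosen by the size or p of the interaction, so their layout is a description.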

How the results depend on the processing

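The interaction had 0 calls in all alternatives but those that follow. With all 18 arrays in the fit 1 probe set was called higher and 1 lower, and with array weights 1 higher and 2 lower. With the pigment epithelium mean as a covariate 1 was called lower, and leaving out each array in turn gave 0 to 1 lower, the 1 being Cldn16 without LD 3. The ordinary contrast at an unadjusted p, the methods' kind of test, gave 21 higher and 45 lower. With the replicate number as a replicate block the interaction had 0 calls (smallest adjusted p = 0.404), light without pretreatment 141, light after PBM 34, PBM minus Control 36 and PBMLD minus LD 79. Arrays of the same number in different groups had correlations of -0.248 to 0.306 (median 0.0235), and 6 of 12 arrays correlated best with their own number, so the numbers were not taken to pair the arrays.

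Counts for light without pretreatment were 202 with no fold limit, 236 by the ordinary contrast unadjusted and 42 adjusted, and 67 (without Control 1) to 260 (without LD 1) as arrays were left out. For light after PBM they were 54 with array weights, 52 with no fold limit, 89 and 13 by the ordinary contrast, and 14 (without PBM 3) to 83 (without PBMLD 1). PBM minus Control had 75 with array weights, 90 by the ordinary contrast unadjusted and 2 with single-symbol probe sets only. PBMLD minus LD had 92 with array weights, 190 and 29 by the ordinary contrast, 0 with single-symbol probe sets only, and 46 (without PBMLD 3) to 132 (without PBMLD 2). Leaving out a numbered run of 54 unnamed probe sets, chosen after seeing the data, left 7 and 10.

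The median interaction of light-raised probe sets stayed between -0.782 and -0.519 as arrays were left out, and it was -0.501 with array weights. That of all light-lowered ones was -0.331 (without LD 2) to -0.054 (without LD 3). With single-symbol probe sets only it was 0.151, and it then ran from -0.138 (without LD 3) to 0.171 (without PBMLD 2). For these it was -0.069 with the pigment epithelium covariate and -0.006 with array weights. Of 103 single interactions 8 changed sign somewhere. Esrrb was -0.182 with array weights and -0.09 with the pigment epithelium covariate, and -0.255 to 0.439 as arrays were left out. Plpp2 was -0.069 with that covariate and -0.138 to 0.495, Nrl -0.099 to 0.612, Ppef1 -0.542 to 0.108 and Tma7 -0.072 to 0.212. Asns was 0.12 with array weights, 0.017 with the lens covariate and -0.104 to 0.097. Slc7a1 was -0.041 with cyclic loess, -0.064 with the pigment epithelium covariate and -0.09 to 0.144. Gnat1 was -0.009 with quantile normalization, -0.037 with that covariate and -0.085 to 0.206. The causes were not tested.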
